A study of Homo sapiens with 12 samples.

Results

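The proteasome genes described here are those whose identifiers start with PSMA, PSMB, PSMC, PSMD, PSME, PSMF or PSMG followed by a digit, together with POMP. The rule took 50 of the 26485 genes listed in each table and left out 5 identifiers with a hyphen. One of the 50, PSMC3IP, carries the prefix by name only and encodes a cofactor of meiotic recombination. The other 49 comprise 8 genes of the alpha ring and 8 of the beta ring of the core particle, 3 immunoproteasome subunits, 9 genes of the cap base, 8 of the cap lid, 5 activator and inhibitor genes and 8 assembly factors. Counts of members called or tested below refer to the 45 of these 49 with a mean of 10 or more normalized reads, the minimum used for testing. PSMA8, PSMB8, PSMB11 and PSMD5 were below it.

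The cells were HEK293T, an established line from human embryonic kidney into which a viral large T antigen was introduced. PX330-GFP plasmids were delivered with polyethylenimine, and polyA RNA was sequenced. The 4 groups of 3 libraries each were the 6T sgRNA with Cas9, the 6T sgRNA without Cas9, the Luciferase sgRNA with Cas9 and the Luciferase sgRNA without Cas9, so that every group received an sgRNA plasmid and the transfection reagent. The study asked what the Cas9 nuclease does to its host, and the authors deposited, for each sgRNA, a table of mean normalized reads in 2 conditions named A and B. Which of them held Cas9, and whether that is the same one in both tables, is not given in the headers, and every difference is given as condition B relative to A. Separate cultures are not named in the labels, and p-values cover only the spread among these libraries, which may be technical. Since the samples are bulk cells, fewer cells of a type and less RNA per cell cannot be told apart. No time of harvest and no share of transfected cells is used here.

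The proteasome is the protease of the ubiquitin pathway. Its core is a barrel of alpha rings, which gate the entry, and beta rings, which carry the proteolytic sites, and a cap with a base of ATPases and a lid with a deubiquitinase recognises, unfolds and feeds in the substrate. In cells exposed to interferon gamma, and in many immune cells, the subunits PSMB8, PSMB9 and PSMB10 take the places of PSMB5, PSMB6 and PSMB7 and change the peptides that are made for antigen presentation. The transcription factor NFE2L1 raises proteasome genes together when proteasome activity falls short, and it acts through antioxidant response elements.

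Proteasome transcripts together took a similar share of each library. The 49 genes held between 0.595% and 0.673% of the reads assigned to genes over the 12 libraries, with the lowest share in library A1 of the Luciferase sgRNA and the highest in library A2 of the 6T sgRNA. The beta ring took 0.133% to 0.158% and the cap base 0.129% to 0.149%. The alpha ring took 0.0934% to 0.119% in 11 libraries and 0.0714% in Luciferase A1. Libraries are numbered here by rising size factor within a condition and carry no replicate number.

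Depth was uneven. The libraries held 5884892 to 8293211 reads in genes under the 6T sgRNA and in condition A of the Luciferase sgRNA, and 19399375 to 38076941 in condition B of the Luciferase sgRNA, so depth and condition cannot be told apart there. All 50 genes of the rule were recovered in all 12 libraries. Of 7 genes that mark HEK293T cells (VIM, NEFM, NEFL, INA, PAX2, KRT8 and KRT18), 7 had a mean of 10 or more. In a list of 8 genes of blood and immune cells, which carry immunoproteasomes, CD3E and MS4A1 were at 0 in all 12 libraries. The summed level of the immune list ranged from 26.2 to 33.1 normalized reads in condition A and 37.7 to 48.5 in condition B of the 6T sgRNA, and from 47.3 to 54.1 and 38.9 to 52.8 under the Luciferase sgRNA.

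No proteasome gene passed an adjusted p of 0.05 in either of the authors' deposited tables. For the 6T sgRNA, 0 of 45 members were called, where 0.0416% of all 19246 genes tested were called. For the Luciferase sgRNA, 0 of 45 were called, where 0% of all 20194 genes were. At an unadjusted p under 0.05, the authors' deposited tables listed 0 of 45 members for the 6T sgRNA against 0.868% of all genes, and 1 of 45, PSMG2, for the Luciferase sgRNA against 1.22%. These shares of all genes in the authors' deposited tables include genes under the mean of 10 that the 45 members had to reach. A limma fit to the reads of the single libraries, which were recovered from the deposited means, also called 0 of 45 members in both comparisons. Its backgrounds over 14009 genes were 0.0214% for the 6T sgRNA and 0% for the Luciferase sgRNA. At an unadjusted p under 0.05, limma listed 0 of 45 members for the 6T sgRNA against 3.1% of all genes and 7 of 45 for the Luciferase sgRNA against 10.7%.

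The catalytic subunits and their immunoproteasome counterparts were at very different levels. The windows before the start sites of one gene of each kind are shown, because one of these genes is abundant and the other near the lower end of the levels, while both encode proteolytic subunits. They are the parts of the 250 bases before a RefSeq start site (GRCh38.p14) that no annotated exon overlaps, read 5′ to 3′ along the gene's strand. Capitals mark the antioxidant response core TGACNNNGC on either strand. The PSMB5 stretch lies at chr14:23035231-23035470 on the minus strand and the PSMB9 stretch at chr6:32853979-32854147 on the plus strand.
PSMB5: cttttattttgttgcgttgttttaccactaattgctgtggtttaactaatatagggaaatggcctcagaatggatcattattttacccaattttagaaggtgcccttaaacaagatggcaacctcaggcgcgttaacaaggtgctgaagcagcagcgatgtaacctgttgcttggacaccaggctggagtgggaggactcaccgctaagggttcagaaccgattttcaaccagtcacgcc
PSMB9: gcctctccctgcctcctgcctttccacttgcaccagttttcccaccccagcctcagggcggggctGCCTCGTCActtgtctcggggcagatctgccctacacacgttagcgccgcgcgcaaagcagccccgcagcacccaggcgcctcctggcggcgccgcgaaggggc

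The PSMB9 stretch holds 1 match to that core, on the minus strand, and the PSMB5 stretch holds 0. Over the full 250 bases before any RefSeq start site, 43 of the 49 genes had a window, and 13 of them (30.2%) held TGACNNNGC, against 13.2% of all 27305 genes with a window. These 13 were PSMA4, PSMB3, PSMB9, PSMC5, PSMD3, PSMD12, PSMD5, PSMD9, PSME1, PSME2, PSME4, PSMG1 and PSMG2, so that 4 of the 13 were assembly factors and 3 were activators. The interferon-stimulated response core, TTTCNN followed directly by TTTC, was found before 5 genes (11.6%, against 3.71% of all genes), among them PSMB10 and PSME2. The interferon gamma activated core TTCNNNGAA was found before 7 (16.3%, against 8.09%), among them PSMB5 and PSMB8. CCAAT boxes, where the factor NF-Y binds, preceded 19 (44.2%, against 37%). Both strands were searched, and a match describes these letters only.

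PSMB5 encodes the subunit with the chymotrypsin-like site. Its normalized reads were 1943, 2261 and 2176 in condition A and 2095, 1891 and 2176 in condition B of the 6T sgRNA, and 2247, 2252 and 2344 in condition A and 2238, 2113 and 1930 in condition B of the Luciferase sgRNA. For the 6T sgRNA these groups overlapped, whereas the 3 Luciferase libraries of condition B were all below those of condition A. limma gave a log2 fold change of −0.05 (95% interval −0.24 to 0.14) for the 6T sgRNA. For the Luciferase sgRNA it was −0.13 with an adjusted p of 0.495.

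PSMB6 carries the caspase-like site. It had 983, 1045 and 1084 normalized reads in condition A and 1009, 987 and 1226 in condition B of the 6T sgRNA. With the Luciferase sgRNA it had 1318, 1219 and 1292 in condition A and 1129, 1139 and 1035 in condition B. Condition A of the Luciferase sgRNA stood highest, and its lowest library was above all but 1 of the other 9.

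PSMB7 carries the trypsin-like site and had 1424, 1553 and 1696 normalized reads in condition A and 1547, 1472 and 1495 in condition B of the 6T sgRNA. Under the Luciferase sgRNA it had 1814, 1700 and 1683, against 1591, 1542 and 1413. For PSMB6 and PSMB7 the Luciferase groups also did not overlap, with limma log2 fold changes of −0.21 (SE 0.0939) and −0.19 (SE 0.0829) and an adjusted p of 0.444 for each.

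PSMB8, which replaces PSMB5, was near the limit of detection. It had 48 reads in all 12 libraries together, from 0 to 10 in a library, and was at 0 in library B2 of the 6T sgRNA and library A3 of the Luciferase sgRNA. Its means in the authors' deposited tables were 3.39 and 4.41 normalized reads in conditions A and B of the 6T sgRNA and 5.37 and 2.47 for the Luciferase sgRNA. No difference between the groups was detectable at this depth.

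PSMB9, which replaces PSMB6, had 13.8, 9.98 and 12.2 normalized reads in condition A and 4.55, 8.38 and 9.55 in condition B of the 6T sgRNA. It was the only one of the 45 tested members whose 6T groups did not overlap, where 7.92% of all genes in the fit did not. These values rest on 8 to 10 reads per library in condition A and 3 to 8 in condition B. The log2 fold change was −0.66 (limma, SE 0.319, unadjusted p = 0.0591, adjusted p = 0.99989), and the authors' deposited table gave −0.68 with p = 0.323. With the Luciferase sgRNA the values were 9.91, 13.9 and 12.1 against 7.11, 10.2 and 10.2, which overlapped.

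PSMB10, which replaces PSMB7, was the most abundant of the 3. It had 83.1, 136 and 90.6 normalized reads in condition A and 135, 109 and 116 in condition B of the 6T sgRNA, and 129, 119 and 132 against 122, 128 and 125 under the Luciferase sgRNA. Both pairs of groups overlapped.

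Per kilobase of the principal transcript, the level of PSMB5 was 475-fold that of PSMB8, with 196.9-fold to 2342-fold over the 10 libraries in which PSMB8 had reads. PSMB6 was at 101-fold the level of PSMB9 (65.2 to 203 over the 12 libraries) and PSMB7 at 16.5-fold that of PSMB10 (14.0 to 23.3). With the median length of the basic coding transcripts these folds were 610, 100.8 and 16.5. PSMB8 and PSMB9 lie on chromosome 6 beside TAP1 and TAP2, which pump peptides into the endoplasmic reticulum, and those neighbours had means in the authors' deposited tables of 273 to 306 and 532 to 594 normalized reads. Of the factors that induce immunoproteasome genes, IRF1 had means in the authors' deposited tables of 128 to 142 and NLRC5 of 52.8 to 67.8.

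**Figure D1:**
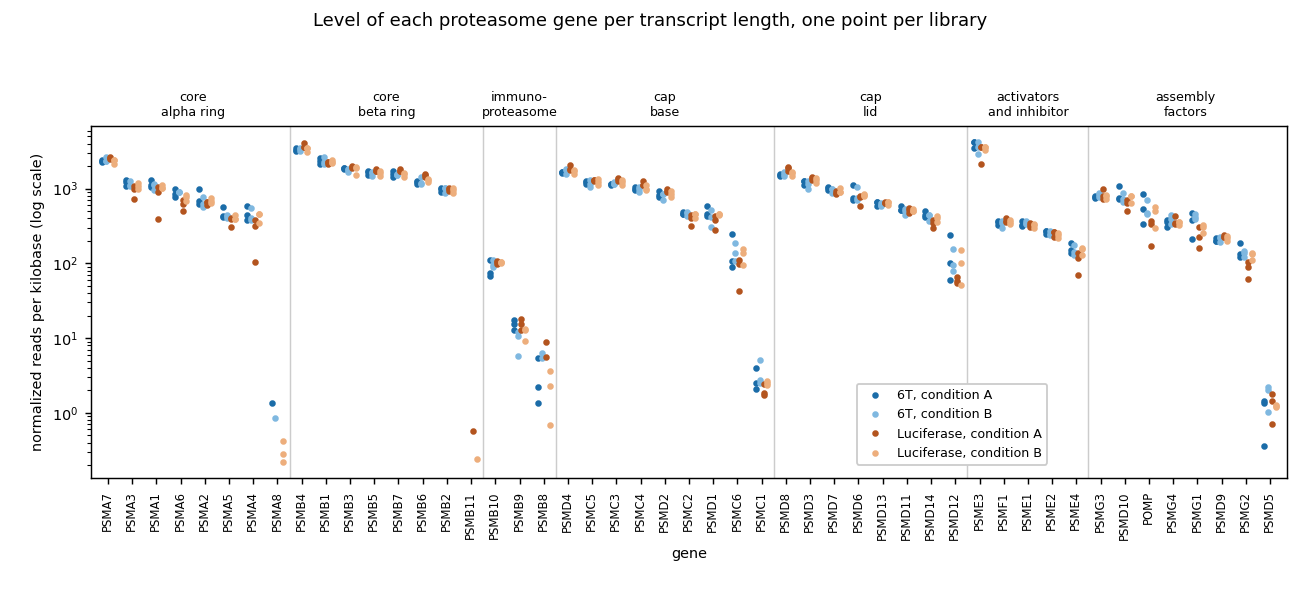
Normalized reads per kilobase of the principal transcript (log scale) of each proteasome gene by role, one point per library in 4 groups of 3; libraries at 0 are not drawn. PSMC1, PSMD5, PSMA8 and PSMB11 stand below the other genes of their roles, and PSMB8 and PSMB9 stand below PSMB10. PSMB5 is at 475-fold the level of PSMB8.

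In the alpha ring, 7 of 8 genes were tested. PSMA7 had the highest level, 2416 normalized reads per kilobase (2163 to 2637 over the 12 libraries). PSMA8, the alpha subunit of the testis, had 8 reads in all libraries together and was at 0 in 7 of them. The remaining 6 had 401 to 1098 per kilobase. Here PSMA4 was the lowest at 401, but it came to 1873 with the median length of its basic transcripts, which would place it second in the ring.

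PSMA4 had 1952, 2592 and 1691 normalized reads in condition A and 2442, 1683 and 1794 in condition B of the 6T sgRNA. Under the Luciferase sgRNA it had 464, 1675 and 1404 in condition A and 1528, 2000 and 1994 in condition B. Library Luciferase A1 was the lowest of all 12 for PSMA4, PSMA1, PSMA3, PSMA5 and PSMA6, and the Luciferase groups of PSMA4 overlapped.

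The log2 fold change of PSMA4 under the Luciferase sgRNA was 0.83 (limma, SE 0.357, adjusted p = 0.444), and without Luciferase A1 it was 0.25. PSMA1 had 1574, 1946 and 1699 normalized reads in condition A and 1734, 1441 and 1665 in condition B of the 6T sgRNA, and 600, 1560 and 1371 against 1519, 1680 and 1534 under the Luciferase sgRNA. PSMA6 had 514, 730 and 638 in condition A and 699, 847 and 794 in condition B of the Luciferase sgRNA, with a limma log2 fold change of 0.32 (adjusted p = 0.444) that was 0.19 without Luciferase A1. In the authors' deposited tables, 5 of the 7 alpha genes were lower in condition B under the 6T sgRNA and 6 of 7 were higher under the Luciferase sgRNA, with medians of −0.08 and 0.25. Of the 7, 0 were called in either table.

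PSMA2, a subunit of the outer ring, had 917, 1484 and 1004 normalized reads in condition A and 1154, 857 and 924 in condition B of the 6T sgRNA, and 887, 977 and 981 against 959, 1004 and 1111 for the Luciferase sgRNA. Neither sgRNA separated its groups. PSMA5, another subunit of that ring, had log2 fold changes by limma of −0.14 and 0.16 for the 6T and the Luciferase sgRNA, after 1575, 1625 and 2107 against 1635, 1522 and 1624 and 1155, 1497 and 1456 against 1485, 1632 and 1448 normalized reads. The abundant PSMA7 had 2406, 2308 and 2273 normalized reads in condition A and 2333, 2350.2 and 2603 in condition B of the 6T sgRNA, and 2627, 2447 and 2525 against 2434, 2415 and 2155 for the Luciferase sgRNA. Its groups overlapped for the 6T sgRNA and not for the Luciferase sgRNA.

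In the beta ring, 7 of 8 genes were tested, and PSMB11, the subunit of the thymus, had 2 reads in all. PSMB4, a structural subunit, had the highest level at 3451 normalized reads per kilobase (3102 to 4034), and PSMB2 the lowest of the 7 at 968. The SD within groups of these 7 genes ranged from 0.0846 to 0.110 on the log2 scale. In the authors' deposited 6T table, all 7 lay between −0.07 and 0.05 on the log2 scale. In the authors' deposited table for the Luciferase sgRNA, 6 of 7 were lower in condition B, the median being −0.12 and the range −0.21 to 0.05. PSMB4 had 3889, 3439 and 3493 normalized reads in condition A and 3331, 3362 and 2990 in condition B of the Luciferase sgRNA, without overlap. Its 6T groups, 3050, 3215 and 3355 against 3317, 3062 and 3416, overlapped. PSMB2 had 2459.7, 2656 and 2732 normalized reads in condition A and 2739, 2343 and 2772 in condition B of the 6T sgRNA, and 2551, 2699 and 2734 against 2729.9, 2571 and 2372 for the Luciferase sgRNA. In both tables its groups overlapped. PSMB3, like PSMB2 a subunit without a proteolytic site, had log2 fold changes by limma of −0.07 and −0.12 for the 6T and the Luciferase sgRNA.

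In the cap base, 9 of 9 genes were tested, and PSMD4, a ubiquitin receptor, had the highest level at 1736 normalized reads per kilobase. PSMC1 encodes one of the 6 ATPases of the ring, yet it had 9.23, 17.5 and 11.0 normalized reads in condition A and 12.1, 11.2 and 22.7 in condition B of the 6T sgRNA. With the Luciferase sgRNA it had 8.26, 7.73 and 10.9, against 11.2, 10.6 and 12. No library exceeded 22.7, and the groups overlapped under both sgRNAs.

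Per kilobase, the other ATPase genes were at 449-fold (PSMC3), 456-fold (PSMC5), 386-fold (PSMC4), 163-fold (PSMC2) and 46.6-fold (PSMC6) the level of PSMC1. With the median length of basic transcripts the folds were 317, 310, 276, 124 and 42.1. The PSMC1 gene lies at chr14:90256495-90275429, and 82.1% of its principal transcript overlaps exons of NRDE2 on the other strand. Of its 50-base stretches, 29.4% occur at other loci, 104 in number and 14 of them pseudogenes. Reads with alignments that were not unique made up 19.4% to 24.6% of the summed normalized reads of a condition, and reads ambiguous between features 1.33% to 1.40%, and neither was assigned to a gene. Strand use in the counting is not given in the sources used here, and the part of these overlaps in the low value was not tested.

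PSMC3 was the member with the least spread. It had 1798, 1827 and 1771 normalized reads in condition A and 1818, 1804 and 1940 in condition B of the 6T sgRNA, and 2174, 2009 and 2111 against 2069, 1921 and 1788 under the Luciferase sgRNA. Its SD within groups was 0.0674 on the log2 scale. PSMC6 had 234, 545 and 197 normalized reads in condition A and 408, 299 and 235 in condition B of the 6T sgRNA, and 94.2, 241 and 215 against 208, 300 and 336 under the Luciferase sgRNA. Its SD of 0.60 is far above that of PSMC3. Other loci hold 24.7% of its 50-base stretches, and a link of this share with the spread was not tested. PSMC1, PSMA6 and PSMD4, with shares of 29.4%, 24.6% and 22.8%, had SDs of 0.37, 0.17 and 0.096.

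PSMD1, a scaffold that binds ubiquitin receptors, had the smallest p of all members in the authors' deposited 6T table (p = 0.222, log2 fold change −0.25). Its normalized reads there were 1517, 1941 and 1423 against 1711, 1014 and 1384, which overlapped. Under the Luciferase sgRNA they were 920, 1417 and 1285 in condition A and 1464, 1521 and 1505 in condition B, without overlap, and the authors' deposited table gave 0.31 (p = 0.258). Of the 9 base genes in the authors' deposited tables, 6 were lower in condition B with the 6T sgRNA and 5 with the Luciferase sgRNA, with 0 called.

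PSMD2, the other large scaffold of the base, had 2698, 2859 and 3181 normalized reads in condition A and 2903, 2449 and 2921 in condition B of the 6T sgRNA, and 3384, 3150.2 and 3215 against 3160.4, 2917 and 2628 for the Luciferase sgRNA. Both pairs of groups overlapped. The ubiquitin receptor PSMD4 had 2255, 2218 and 2283 normalized reads in condition A and 2113, 2399 and 2445 in condition B of the 6T sgRNA, and 2782, 2397 and 2448 against 2396, 2299 and 2097 for the Luciferase sgRNA. Its groups overlapped for the 6T sgRNA and not for the Luciferase sgRNA. The ATPase genes PSMC4 and PSMC2 differed in direction for the Luciferase sgRNA, at −0.18 and 0.20 on the log2 scale by limma, with adjusted p-values of 0.444 and 0.446.

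In the cap lid, 8 of 8 genes were tested, and PSMD8, which joins the lid late in its assembly, had the highest level at 1641 normalized reads per kilobase (1657 with the median length of basic transcripts, where PSMD7 was higher at 1694). It had 2309, 2477 and 2369 normalized reads in condition A and 2277, 2462 and 2568 in condition B of the 6T sgRNA, which overlapped. It had 3048, 2697 and 2921 in condition A and 2589, 2553 and 2316 in condition B of the Luciferase sgRNA, which did not. The Luciferase log2 fold change was −0.22 (limma, SE 0.0785, unadjusted p = 0.0160, adjusted p = 0.444).

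PSMD12, a scaffold subunit with the lowest level of the lid at 101 per kilobase, varied most of all members, with an SD within groups of 0.692. Its normalized reads were 449, 1046 and 263 in condition A and 692, 422 and 344 in condition B of the 6T sgRNA. With the Luciferase sgRNA they were 238, 254 and 289, against 223, 449 and 658. It had the highest log2 fold change of the 45 in the authors' deposited table for the Luciferase sgRNA, 0.77 (p = 0.339), and its groups overlapped. PSMD14, the deubiquitinase of the lid, had 585, 733 and 680 normalized reads in condition A and 701, 830 and 785 in condition B of the Luciferase sgRNA (log2 fold change 0.21 by limma, adjusted p = 0.446). In the authors' deposited tables, 7 of the 8 lid genes were lower in condition B under the 6T sgRNA (median −0.08) and 4 of 8 under the Luciferase sgRNA (median 0.05), with 0 called.

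PSMD3, a scaffold of the lid, had 2452, 2719 and 2694 normalized reads in condition A and 2725, 2166 and 2476 in condition B of the 6T sgRNA, and 3048, 2850.2 and 2964 against 2994, 2813 and 2575 for the Luciferase sgRNA. Neither sgRNA separated its groups. PSMD11, another scaffold subunit, had 2117, 2369 and 2129.8 normalized reads in condition A and 2163, 1840.5 and 2064 in condition B of the 6T sgRNA, and 1909.9, 2149.6 and 2291 against 2044, 2161 and 2089 for the Luciferase sgRNA. In both tables its groups overlapped. PSMD13, also of the lid, had log2 fold changes by limma of −0.06 and 0.00 for the 6T and the Luciferase sgRNA.

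Among the activators and the inhibitor, 5 of 5 genes were tested. PSME1 and PSME2 form the interferon-inducible activator ring of the cytosol. PSME1 had 321, 331 and 366 normalized reads in condition A and 334, 346 and 369 in condition B of the 6T sgRNA, and 327, 354 and 310 against 332, 338 and 302 under the Luciferase sgRNA. PSME2 had 375, 346 and 378 against 340, 377 and 346, and 317, 365 and 371 against 334, 361 and 304. Both genes overlapped in every comparison. The limma intervals of the B against A difference under the 6T sgRNA include 0 for both.

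PSME3 encodes the activator of the nucleus and was at 10.6-fold the level of PSME1 and 14.2-fold that of PSME2 per kilobase, folds that were 3.49 and 2.66 with the median length of basic transcripts. It had 3526, 4157 and 4205 normalized reads in condition A and 4253, 2905 and 3589 in condition B of the 6T sgRNA, and 2151, 3634 and 3563 against 3602, 3562 and 3334 for the Luciferase sgRNA. The groups overlapped under both sgRNAs. PSME4, a large nuclear activator, had 501, 990 and 828 normalized reads in condition A and 906, 1095 and 1154 in condition B of the Luciferase sgRNA. The groups overlapped, the log2 fold change was 0.49 (limma, SE 0.209, adjusted p = 0.444), and without Luciferase A1 it was 0.21. PSMF1, the inhibitor, had 1397, 1574 and 1517 normalized reads in condition A and 1565, 1274 and 1471 in condition B of the 6T sgRNA, and 1513, 1576 and 1724 against 1608, 1529 and 1455 for the Luciferase sgRNA. The groups overlapped under both sgRNAs. Its level was 354 normalized reads per kilobase, and its log2 fold changes in the authors' deposited tables were −0.06 and −0.07.

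Of the 8 assembly factors, 7 were tested. PSMD5, a chaperone of the cap base, had 66 reads in all libraries together and a mean of 4.61 normalized reads, and none of its 50-base stretches occurs at another locus. PSMG3, which pairs with PSMG4, was the highest of the role at 806 normalized reads per kilobase (1113 with the median length of basic transcripts, where PSMD10 was higher at 1472), with log2 fold changes by limma of 0.10 and −0.10 for the 6T and the Luciferase sgRNA. For PSMG4 these were 0.17 and −0.09. PSMD10, a chaperone of the cap base, had 1131, 1654 and 1165 normalized reads in condition A and 1338, 1121 and 1036 in condition B of the 6T sgRNA, and 768, 1095 and 988 against 995, 1237 and 1231 for the Luciferase sgRNA. The groups overlapped under both sgRNAs. PSMG2, which pairs with PSMG1 to build the alpha ring, had the smallest p of all members in the authors' deposited tables. It had 104, 176 and 150 normalized reads in condition A and 186, 232 and 226 in condition B of the Luciferase sgRNA, without overlap. Under the 6T sgRNA it had 228, 319 and 205, against 247, 230 and 207, with overlap.

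The Luciferase log2 fold change of PSMG2 was 0.58 in the authors' deposited table (p = 0.0312, adjusted p = 1). By limma it was 0.60 (SE 0.20, 95% interval 0.17 to 1.03, unadjusted p = 0.0096, adjusted p = 0.444) and 0.39 without Luciferase A1. POMP, which matures the beta ring, had 714, 1137 and 454 normalized reads in condition A and 948, 633 and 615 in condition B of the 6T sgRNA, and 228, 492 and 444 against 393, 672 and 765 under the Luciferase sgRNA. Its groups overlapped under both. Of the 7 assembly factors, 4 were higher in condition B under each sgRNA in the authors' deposited tables, with medians of 0.04 and 0.28 and 0 called. Only PSMG1 was higher under both. PSMG3, PSMG4 and PSMD9 were higher under the 6T sgRNA alone, and PSMG2, POMP and PSMD10 under the Luciferase sgRNA alone.

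**Figure D2:**
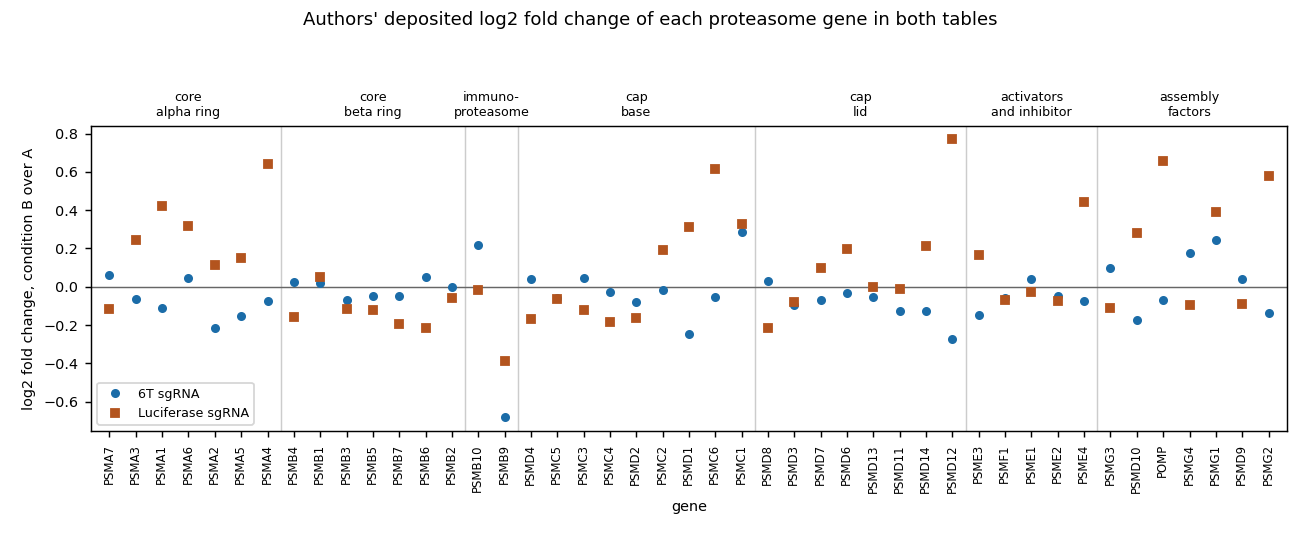
Authors' deposited log2 fold change of condition B over A for the 45 members tested, by role, with the 6T sgRNA as circles and the Luciferase sgRNA as squares. The 6T values lie between −0.68 (PSMB9) and 0.29 (PSMC1), the Luciferase values between −0.39 (PSMB9) and 0.77 (PSMD12), and 0 members were called in either table.

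Over the 45 members, the authors' deposited 6T table had 16 higher in condition B (35.6%, against 42.2% of all genes in the fit). Their median log2 fold change was −0.05 (all genes −0.03), and the median size of a change regardless of sign was 0.0692 (all genes 0.102). For the Luciferase sgRNA, 21 were higher in the authors' deposited table (46.7%, against 49.3%), with a median of −0.01 (all genes 0.00) and a median size of 0.167 (all genes 0.157). Between −0.25 and 0.25 on the log2 scale lay 42 of 45 members under the 6T sgRNA and 32 of 45 under the Luciferase sgRNA. The median SD within groups was 0.135 for members and 0.185 for all genes in the fit. All genes in the fit were not matched to the members for level. The median level of the 49 proteasome genes was 1157 normalized reads, where a mean of 10 sufficed for the fit. The part of level in these differences of spread and size was not tested.

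Groups that did not overlap under the Luciferase sgRNA were found for 9 of 45 members (20%, against 16% of all genes in the fit). PSMD1 and PSMG2 were higher in condition B (2 of 45, against 6.51% of all genes), and PSMA7, PSMB4, PSMB5, PSMB6, PSMB7, PSMD4 and PSMD8 were lower (7 of 45, against 9.48%). Some margins were narrow. The lowest value of condition A and the highest of condition B were 2397.03 and 2396.42 for PSMD4, 2247 and 2238 for PSMB5, and 2447 and 2434 for PSMA7. At an unadjusted p under 0.05, limma listed PSMG2, PSMA6, PSME4 and PSMA4 as higher (4 of 45, against 6.42% of all genes) and PSMD8, PSMB7 and PSMB6 as lower (3 of 45, against 4.32%). That count of 7 was 0 without Luciferase A1 (against 2.82% of all genes in the same fit), 15 without Luciferase A2 (17.9%), 12 without Luciferase B1 (18%), 2 without Luciferase B2 (3.67%), 1 without Luciferase B3 (2.59%) and 1 without both Luciferase A1 and 6T A2 (3.83%).

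**Figure D3:**
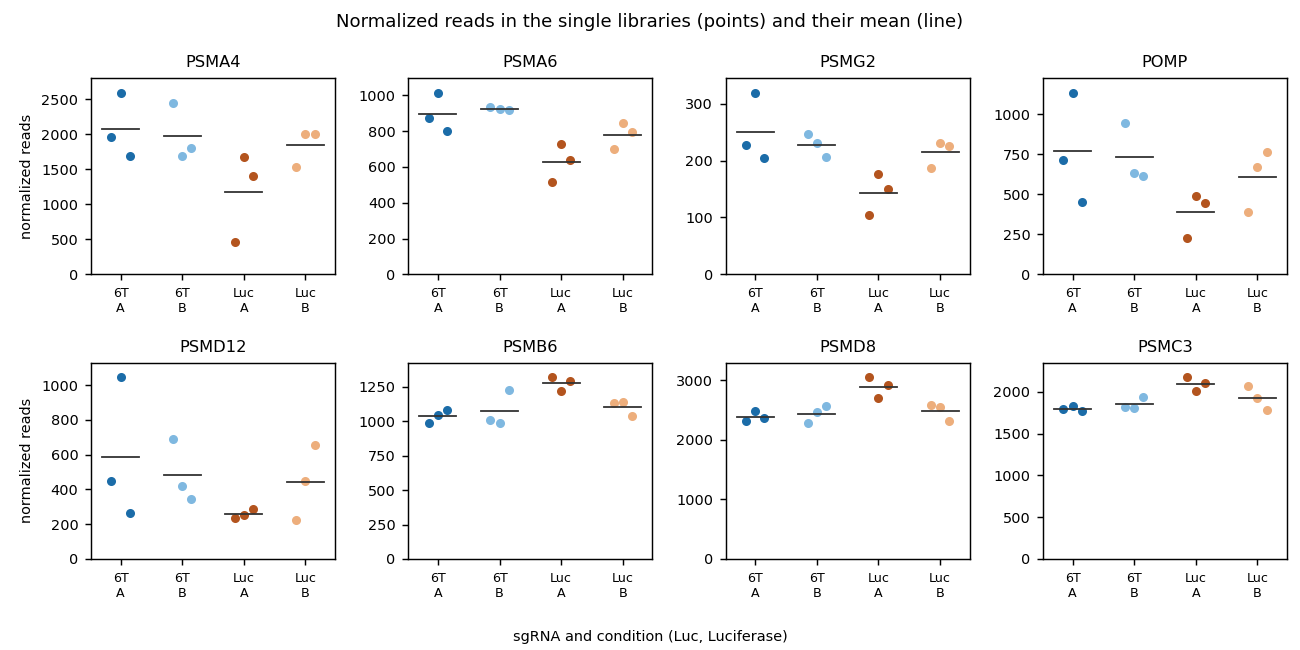
Normalized reads of 8 members in each of the 12 libraries (points) with the mean of each group (line), for the 6T and Luciferase (Luc) sgRNA in conditions A and B; the axes start at 0. Library Luciferase A1 is the lowest point of its group for PSMA4 (464), PSMA6, PSMG2 and POMP, while PSMB6, PSMD8 and PSMC3 are highest in condition A of the Luciferase sgRNA.

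The difference between the sgRNAs of the B against A difference was tested as an interaction by limma. Here 0 of 45 members were called, where 0% of all 14009 genes were, with a smallest adjusted p of 0.485. At an unadjusted p under 0.05 there were 3 of 45 (against 9.4% of all genes). They were PSMG2 at 0.72 (SE 0.282), PSMD1 at 0.60 (SE 0.264) and PSMD8 at −0.25 (SE 0.111), each with an adjusted p of 0.485. The count of 3 was 0 without any one of Luciferase A1, Luciferase B2, Luciferase B3 and 6T B3 (against 3.63% to 4.87% of all genes in these fits), 2 without 6T A2 (6.49%), 6 without 6T B1 (14.4%) and 10 without Luciferase A2 (15.4%). PSMA4 had the widest difference of the 45 at 0.90, with a 95% interval from −0.19 to 1.99.

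Luciferase and 6T libraries were also compared within a condition, which the shared normalization of both tables allows. These comparisons use the same libraries as those above. Whether condition A is the same treatment in both tables is not stated. Within condition A limma called 0 of 45 members, where 0.0642% of all genes were called. At an unadjusted p under 0.05 there were 18 of 45 (40%, against 31.4% of all genes), 14 lower (against 18.7%) and 4 higher (against 12.7%) with the Luciferase sgRNA. The 14 lower were 5 alpha ring genes, 4 assembly factors, 2 genes each of the cap base and lid, and PSME4. The smallest adjusted p-values were 0.0603 (PSMA6) and 0.0606 (PSMG2).

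PSMA6 was at a log2 fold change of −0.52 (SE 0.128), with 514, 730 and 638 normalized reads against 874, 1016 and 799, and the groups did not overlap. For PSMG2 it was −0.81 (SE 0.20), with 104, 176 and 150 against 228, 319 and 205. PSMD14 was at −0.42 (SE 0.118, adjusted p = 0.0659), PSMA4 at −0.99 (SE 0.357, adjusted p = 0.0965) and POMP at −0.96 (SE 0.351, adjusted p = 0.0995). The 4 higher were PSMB6 at 0.30 (SE 0.0939), PSMD8 at 0.28 (SE 0.0785), PSMC4 at 0.23 and PSMC3 at 0.22. With a correction for GC content these were 0.18, 0.12, 0.11 and 0.08, PSMA6 was at −0.29, PSMG2 at −0.86, PSMD14 at −0.22, PSMA4 at −0.66 and POMP at −0.33.

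Groups in condition A did not overlap for 21 of 45 members (46.7%, against 33% of all genes in the fit), 10 higher (against 17%) and 11 lower (against 16%). The count of 18 was 9 without Luciferase A1 (against 17.1% of all genes in the same fit), 11 without 6T A2 (20.9%), 7 without both (13.7%) and 11 with a correction for GC content (16.4%). Without Luciferase A2, 8 of the 44 members then tested passed an adjusted p of 0.05 (PSMA1, PSMA3, PSMA4, PSMA6, PSMD8, PSMD14, PSME4 and PSMG2), where 7.29% of all genes in that fit did. Without Luciferase A1, PSMA4 was at −0.42, PSMA1 at −0.24 instead of −0.67 and POMP at −0.62.

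**Figure D4:**
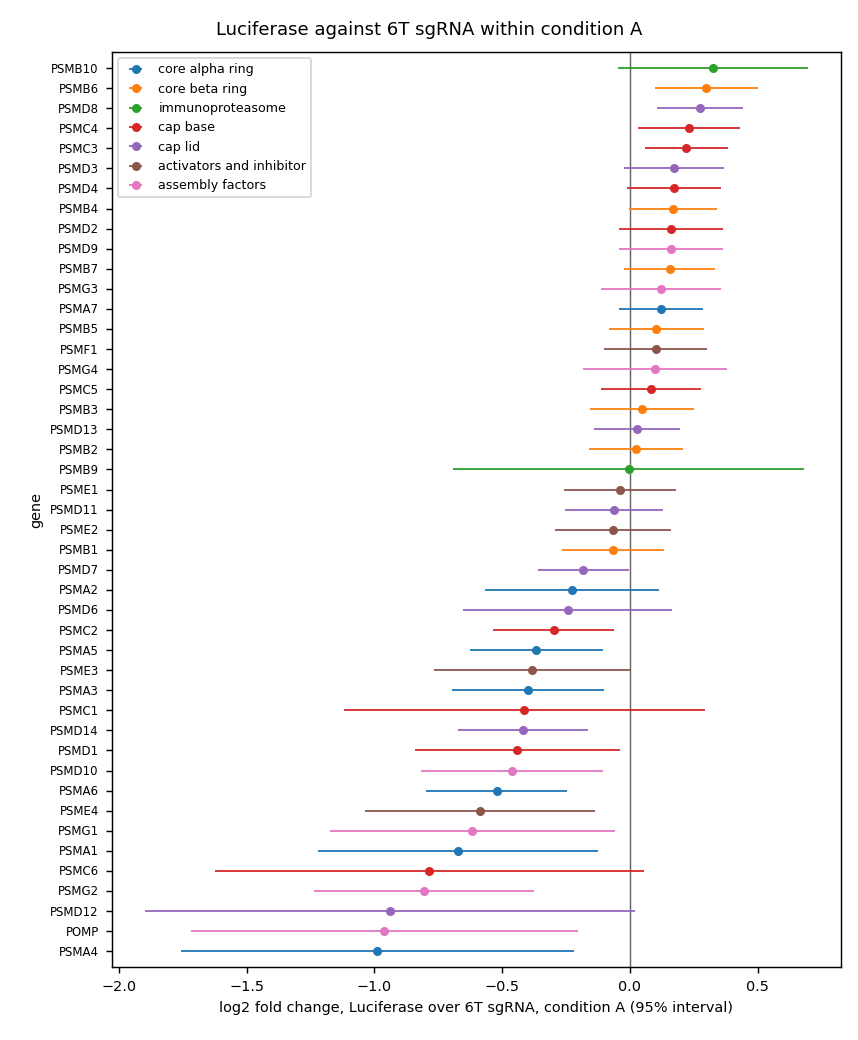
Log2 fold change of the Luciferase over the 6T sgRNA within condition A for the 45 members tested (limma, points, with 95% intervals as lines), coloured by role. PSMA4 (−0.99), POMP (−0.96) and PSMD12 (−0.94) are lowest and PSMB10 (0.33) and PSMB6 (0.30) highest, and 0 members passed an adjusted p of 0.05.

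Within condition B, limma called 0 of 45 members, where 0% of all genes were called, and 0 of 45 had an unadjusted p under 0.05 (against 5.4% of all genes). The smallest adjusted p was 0.930. Groups did not overlap for 2 of 45 members (against 12.9% of all genes), PSMA6 and PSMG1, both lower with the Luciferase sgRNA (against 6.17%). PSMG1 had 983, 902 and 854 normalized reads with the 6T sgRNA and 556, 712 and 670 with the Luciferase sgRNA (log2 fold change −0.50, 95% interval −1.06 to 0.06).

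The changes of members went with the GC content of their transcripts, which the choice of members did not use. Across the 45 members, Spearman's rho of the limma log2 fold change with GC content was −0.75 for the Luciferase sgRNA and 0.30 for the 6T sgRNA. Across 13265 genes in the fit it was −0.69 and 0.37. These are descriptions across genes, which share libraries and are not independent. Of the 12 members with a GC content under 45%, a limit set after the values were seen, 12 were higher in condition B in the authors' deposited Luciferase table (median 0.31) and 11 were lower in their 6T table (median −0.07). Of the 33 with 45% or more, 24 were lower in condition B in the authors' deposited Luciferase table (median −0.08) and 18 in the 6T one (median −0.03). Over all 4518 genes in the fit under that limit, 88.6% were higher in condition B for the Luciferase sgRNA and 76.3% lower for the 6T sgRNA in the authors' deposited tables. Of the 8747 genes at or above it, 70.9% and 48.9% were lower.

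For Luciferase against 6T libraries within condition A, rho was 0.78 across members and 0.74 across genes, of the opposite sign to that of the Luciferase difference, with which it shares the Luciferase libraries of condition A. Within condition B it was 0.39 and 0.10. Members of low GC content also spread more within groups (rho −0.51 across members, −0.32 across genes). Within its own group, the deviation of a library had a rho with GC content from −0.68 (Luciferase A2) to 0.70 (Luciferase A1) across the members. With a correction for GC content, the Luciferase log2 fold changes by limma were 0.65 for PSMG2 (0.60 without it), 0.60 for PSMA4 (0.83) and −0.19 for PSMB7 (−0.19). They were smaller by over 1.5 times for PSMD8 at −0.10 (−0.22), PSMB6 at −0.12 (−0.21), PSME4 at 0.24 (0.49) and PSMA6 at 0.18 (0.32). In that fit 4 of 45 members had an unadjusted p under 0.05, against 5.79% of all genes. The interaction was then 0.75 for PSMG2, 0.38 for PSMD1 and −0.11 for PSMD8.

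**Figure D5:**
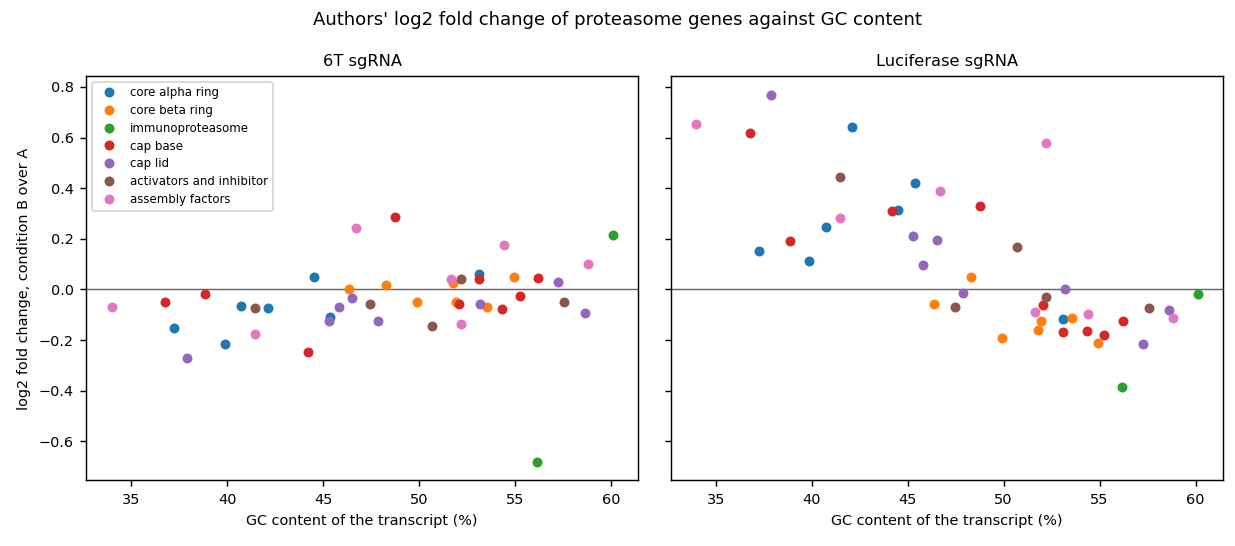
Authors' deposited log2 fold change of condition B over A of the 45 members tested against the GC content of the principal transcript in percent, one panel per sgRNA, coloured by role. Under the Luciferase sgRNA the 12 members under 45% GC all lie above 0, and under the 6T sgRNA 11 of these 12 lie below 0.

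The 28 further genes of the pathway include ubiquitin precursors and activating enzymes, shuttle factors, cap-bound deubiquitinases, VCP with its cofactors, NFE2L1 and the factors that process it. Also among them are UBE3C, BAG6 and IPO9, and ADRM1 and SHFM1, which lack the prefix and stayed outside the role counts. Of the 28, 26 were tested and 0 were called in either of the authors' deposited tables or by limma in any of the 5 comparisons. UBB and UBA1 were left out because their reads in condition B of the Luciferase sgRNA were not recovered. They were abundant, with means of 15101 and 11079 in condition A of that sgRNA. Their log2 fold changes in the authors' deposited tables were 0.027 and 0.007 for the 6T sgRNA and −0.155 and −0.102 for the Luciferase sgRNA. Higher in condition B in the authors' deposited tables were 7 of 26 for the 6T sgRNA (median −0.07) and 15 of 26 for the Luciferase sgRNA (median 0.01). Of all genes in the fit, 42.2% (median −0.03) and 49.3% (median −0.004) were higher. At an unadjusted p under 0.05, limma listed 0 of 26 for the 6T sgRNA (against 3.1% of all genes), 3 for the Luciferase sgRNA (10.7%), 2 for their difference (9.4%), 7 in condition A (31.4%) and 1 in condition B (5.4%). The smallest p-values were those of NGLY1, UFD1L and PAAF1 for the 6T sgRNA and of NGLY1, UCHL5 and USP14 for the Luciferase sgRNA. NGLY1 removes sugars from proteins taken out of the endoplasmic reticulum, NFE2L1 among them. Its log2 fold change was −0.25 (p = 0.102) and 0.32 (p = 0.0908) in the authors' deposited tables. Within condition A it was lower with the Luciferase sgRNA by limma, at −0.56 with an adjusted p of 0.0525. By limma the smallest p-values were those of NGLY1, KIAA0368 and UCHL5 for the Luciferase sgRNA and in condition A, of NGLY1 and KIAA0368 among others for the difference between the sgRNAs, of NGLY1, PAAF1 and UFD1L for the 6T sgRNA, and of NPLOC4, DDI2 and UFD1L in condition B. In condition A, KIAA0368, a scaffold that binds proteasomes, was at −0.33 (adjusted p = 0.0575) and UCHL5, a deubiquitinase bound to the cap, at −0.61 (adjusted p = 0.0744). In condition B the VCP cofactor gene NPLOC4 was at 0.19 (adjusted p = 0.901). NFE2L1 itself had means in the authors' deposited tables of 2145 and 2236 normalized reads in conditions A and B of the 6T sgRNA and 2276 and 2149 of the Luciferase sgRNA.

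PSMC3IP had 289, 260 and 262 normalized reads in condition A and 285, 324 and 319 in condition B of the 6T sgRNA, and 359, 302 and 284 against 313, 289 and 263 under the Luciferase sgRNA. Its groups overlapped under both sgRNAs, and 54.4% of its principal transcript overlaps exons of MLX on the other strand.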

How the data were processed

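Polyadenylated RNA of 12 HEK293T libraries was aligned to hg38 by STAR, counted by HTSeq and compared by DESeq, per the submitters' processing notes, without versions. Each deposited table gives signal values (mean reads after division by DESeq size factors), a ratio of condition B over A, the log2 of this ratio, and the p-value and adjusted p of DESeq, per the file headers.

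A deposited mean is made of 3 whole read numbers, each divided by its library's factor, so the reads of each library could be found from it, with a single solution for 99.65% to 99.99% of genes above 0. Genes without one were abundant, and their reads in the library totals were estimated from the means. They held 5.18% to 5.47% of a total in condition A of the 6T sgRNA. In condition B of the Luciferase sgRNA they held 12.0% to 12.1%, and in the other groups 0.730% to 0.812%. The size factors found match factors over all 12 libraries to within 0.0522%, and those within a table only to 36.7%, so both tables have 1 common normalization. The log2 of normalized reads plus 1 was fitted with limma (3.58.1, R 4.3.3, mean-variance trend, 4 group means) for 14009 genes with a mean of 10 or more, with Benjamini-Hochberg adjustment. Such log2 values understate changes of low genes. Recovery and fit were tested on simulated data.

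Lengths, GC content and positions are of GENCODE 29 principal transcripts (hg38), which matched 50 of 50 members. Shared stretches were 50 bases long. Rows that name no gene stayed out of the library totals, and reads in no feature made up 16.3% to 17.8% of the summed reads. The members and lists were chosen with earlier results of these data known. Named with values are the immunoproteasome genes with PSMB5, PSMB6, PSMB7, PSME1 and PSME2, the highest and lowest of each role, the 2 smallest p per role in each deposited table and limma comparison, and of the pathway the 3 smallest p per comparison. PSMA1, PSMB4, PSMC3, PSMC6 and POMP were chosen for level or spread after their values were seen. Some genes of these lists are not reported here.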

Additional observations from a re-analysis of the deposited data

How the results depend on the processing

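No paired analysis was possible because the recovered libraries carry no replicate number. In the fits on recovered reads, the count of members called stayed at 0 in every comparison under another pseudocount (5), a minimum mean of 50, no filter, scaling by the library total, no trend and a GC correction, and with only the 2 groups compared, which was not run for the interaction. Leaving out 1 library at a time gave 0 to 8 members called within condition A and 0 in the other comparisons. The 8 came without Luciferase A2, which leaves 2 libraries in that group. PSMA5 and PSMC2 changed sign within condition A with the GC correction, to 0.15 from −0.37 and to 0.16 from −0.30, and the cause was not tested. When 1 library was left out, counts at an unadjusted p under 0.05 ranged for the 6T sgRNA from 0 to 2 (2 without 6T A2), within condition B from 0 to 2 (2 without Luciferase A1), for the Luciferase sgRNA from 0 to 15, for the difference between the sgRNAs from 0 to 10 and within condition A from 9 to 21. Without Luciferase A1 and 6T A2, an alternative chosen after seeing the data, they were 3 (6T sgRNA), 1 (Luciferase sgRNA), 1 (difference), 7 (condition A) and 2 (condition B). Without a mean-variance trend they were 3 for the Luciferase sgRNA (7 as reported) and 1 for the difference (3 as reported), and with the GC correction 4, 1 and, in condition A, 11 (18 as reported). Of 870 values under an alternative, 824 were classed as unchanged by direction, side of the threshold or a limit of 1.5 times. That class also held small medians that changed sign. It held log2 fold changes of single genes that kept their direction but shrank by over 1.5 times. For PSMA4 under the Luciferase sgRNA the value nearest to 0 was 0.25 (0.83 as reported). For PSMD7 within condition A it was −0.0065 (−0.18 as reported). For the 6T sgRNA, the median log2 fold change over members by limma was −0.05 as reported and 0.02 without 6T B2. Depth limits PSMA8, PSMB8, PSMB11, PSMD5, PSMB9 and PSMC1, which had 2 to 179 reads each over 12 libraries.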
